A study of Homo sapiens
Mus musculus with 24 samples.

Results

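The comparison described here is that of doxorubicin plus cyclophosphamide (Chemo, 5 tumors) with vehicle (CTRL, 4 tumors) in obese hosts. Its members were chosen by the prefix of the library title, and they make up 9 of the 24 libraries of the series. All 9 mice were B6/Rag1KO females, which have no mature T or B cells, fed a high-fat diet. At 14 weeks of age and after 10 weeks on that diet, each was injected under the skin at the base of the neck with MDA-MB-231 cells, a human triple-negative breast cancer line. Once tumors were established, CTRL mice received weekly intraperitoneal saline and Chemo mice doxorubicin (2 mg/kg) and cyclophosphamide (100 mg/kg) by the same route and schedule, for 4 weeks. The other obese groups received moringa seed concentrate in the diet, alone (MC, 5 libraries) or with the same chemotherapy (MC + Chemo, 6 libraries). The group field of 1 of these 6, MC + Chemo 5, disagrees with its title, by which it was placed, so values of MC + Chemo against MC are also given with it taken as MC where that turns their sign. Total RNA of each excised tumor was sequenced from the 3′ end of its transcripts, and reads were counted apart on human genes, taken here as those of the grafted tumor cells, and on murine genes, taken as those of the host tissue inside the tumor. What was done with reads that fit both species is not given in the sources used here.

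Doxorubicin blocks topoisomerase II on DNA and leaves strand breaks, and cyclophosphamide is turned by cytochrome P450 enzymes into an alkylating agent that cross-links DNA. Damaged DNA activates p53, which switches on genes of cell cycle arrest, repair and cell death, although MDA-MB-231 cells carry a mutant p53 while host cells carry the normal protein. DNA that reaches the cytosol can in addition be sensed and lead to type I interferon, whose target genes include antiviral proteins and the machinery of MHC class I presentation. The question of the comparison is which tumor and which host transcripts differed after 4 weeks of these drugs.

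The 9 libraries held between 8154438 and 14921856 human counts and between 4397815 and 7919564 murine counts. In CTRL 44 a single murine gene took 19.7% of the murine counts, where the top gene of the other tumors took between 6.14% and 10.7%. Human genes took 66.2 ± 4.37% of all counts in Chemo (SD, n = 5) and 66 ± 2.85% in CTRL (n = 4), which was no difference beyond the spread (two-sided exact permutation p = 0.960). With 5 against 4 mice its p cannot fall below 0.00794. None of the 9 RNAs had the extra column cleanup that the labels give for a few other libraries, and no batch is labelled. Each library is a separate mouse. Normalized counts below are counts divided by the TMM library size, brought to the mean size of the 20 libraries of the 4 obese groups. Values of single libraries are always given in the order CTRL 17, 31, 44 and 70, and Chemo 19, 30, 33, 34 and 67, where the numbers are those of the mice.

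Tumors CTRL 17 and CTRL 44 stood apart from the other 7 in the state of their tumor cells, and this touches every human result. CDH1, the gene of the epithelial adhesion protein E-cadherin, had 2.8, 3093, 326 and 2994 normalized counts in the CTRL tumors and 2744, 4059, 4010, 3934 and 3791 in the Chemo tumors. EPCAM, an epithelial surface protein, had 76.8, 2888, 575 and 3397 in CTRL and 2824, 3243, 2907, 3190 and 4125 in Chemo. CTRL 17 was nearly devoid of both transcripts and CTRL 44 was low, whereas CTRL 31 and CTRL 70 lay within or near the range of the Chemo tumors. The epithelial splicing factor ESRP1 had the same order, with 2.8, 957, 112 and 1125 in CTRL and 848, 1176, 975, 1087 and 1101 in Chemo.

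Genes of the mesenchymal state ran the other way. VIM, the gene of the intermediate filament vimentin, had 74862, 10905, 52357 and 10227 normalized counts in CTRL and 9648, 4549, 7804, 6827 and 8459 in Chemo. ZEB1, a repressor of epithelial genes, had 1399, 239, 1435 and 190 in CTRL and 189, 105, 116, 163 and 143 in Chemo. MDA-MB-231 cells are known for abundant vimentin and little E-cadherin, so CTRL 17 has the markers of the labelled line, CTRL 44 lies between, and the other 7 tumors, with high CDH1, EPCAM and ESRP1, go against them. The cause was not tested. In the 11 MC and MC + Chemo tumors CDH1 lay between 1729 and 4558, and VIM between 6480 and 22744. Of the receptors that triple-negative cells lack, ESR1 was low (41.7, 33.8, 2.7 and 33.5 in CTRL, 13.4, 25.4, 51.3, 45.9 and 11 in Chemo), ERBB2 was measured at 200, 412, 500 and 371 in CTRL and 355, 510, 792, 566 and 492 in Chemo, and PGR was not among the genes tested. The log2 counts of human ESR1 had a Pearson r of 0.915 with the murine gene of that name over the 20 libraries. Whether its reads came from tumor cells was not tested.

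**Figure D1:**
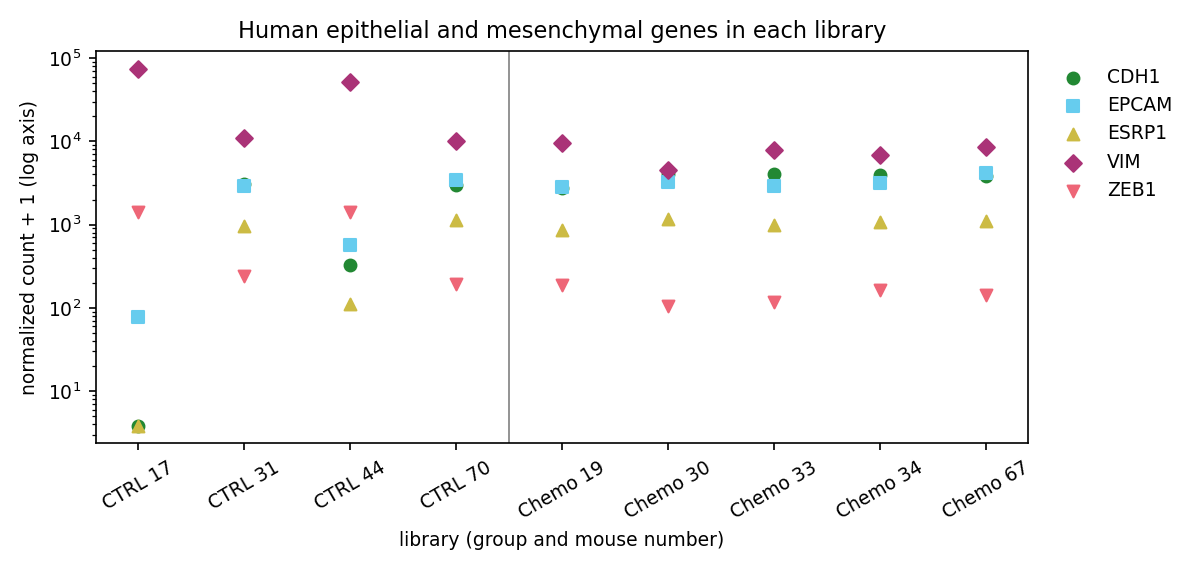
Normalized count plus 1 (log axis) of 5 human genes in each of the 9 libraries, with CTRL left of the grey line and Chemo right of it. CTRL 17 and CTRL 44 have the lowest CDH1, EPCAM and ESRP1 and the highest VIM and ZEB1, and the other 2 CTRL tumors look like the 5 Chemo tumors.

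Across the 12749 human genes with a mean normalized count above 30, log2 counts of CTRL 17 had a median Pearson r of 0.794 with the 7 other tumors outside this pair, and those of CTRL 44 had 0.855. The other tumors had between 0.954 and 0.977. These are correlations across genes, which are not independent replicates. The pair differed in its tumor cells from all 5 Chemo tumors and from the other CTRL tumors alike, so a difference of Chemo from CTRL in a gene of this state cannot be told apart from the unequal spread of that state over the groups. The medians of the human lists and the log2 fold changes of single human genes are therefore given with all 4 CTRL tumors and again without CTRL 17 and CTRL 44, a choice made after the data were seen. In the second case 2 CTRL tumors remain against 5 Chemo tumors.

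Log2 fold changes below are those of Chemo over CTRL fitted by edgeR on the 20 libraries. Their standard error (SE) was derived from the test, as the absolute log2 fold change divided by the square root of the F value. Adjusted p-values are edgeR's after Benjamini-Hochberg adjustment over all genes tested unless DESeq2 is named. By the edgeR quasi-likelihood F test, 0 of 16434 human transcripts (0.0% called) met the 3 criteria of an adjusted p below 0.05, a mean normalized count above 30 and a fold change above 1.5. The lowest adjusted p was 0.0764, and 346 transcripts had an adjusted p below 0.1. An unadjusted p below 0.05 was found for 1288 transcripts higher in Chemo (7.84%) and for 1701 lower (10.4%). Of all those tested, 47.7% had a log2 fold change above 0. By DESeq2, the tool of the study, 483 transcripts met the criteria (3.03% of those tested), 175 higher in Chemo (1.1%) and 308 lower (1.93%).

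No DESeq2 call was left without CTRL 17 and CTRL 44, which leaves 2 CTRL tumors. Without this pair, DESeq2 called 0 human transcripts (652 of 18872 had an unadjusted p below 0.05, 3.45%) and edgeR called 0 (562 of 16977, 3.31%). Of the 308 transcripts that DESeq2 called lower in Chemo, 296 were higher in both CTRL 17 and CTRL 44 than in CTRL 31 and CTRL 70, and of the 175 called higher in Chemo, 148 were lower in both. The median absolute log2 fold change of the 483, which were chosen with the pair in the fit, was 1.14 with it and 0.438 without. In 169 of the 483, all 5 Chemo tumors lay beyond both CTRL 31 and CTRL 70 on the called side. Of all genes, 3.63% had all 5 above and 4.1% all 5 below. The 483 were chosen on these same libraries, so a larger share among them follows in part from the choice.

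**Figure D2:**
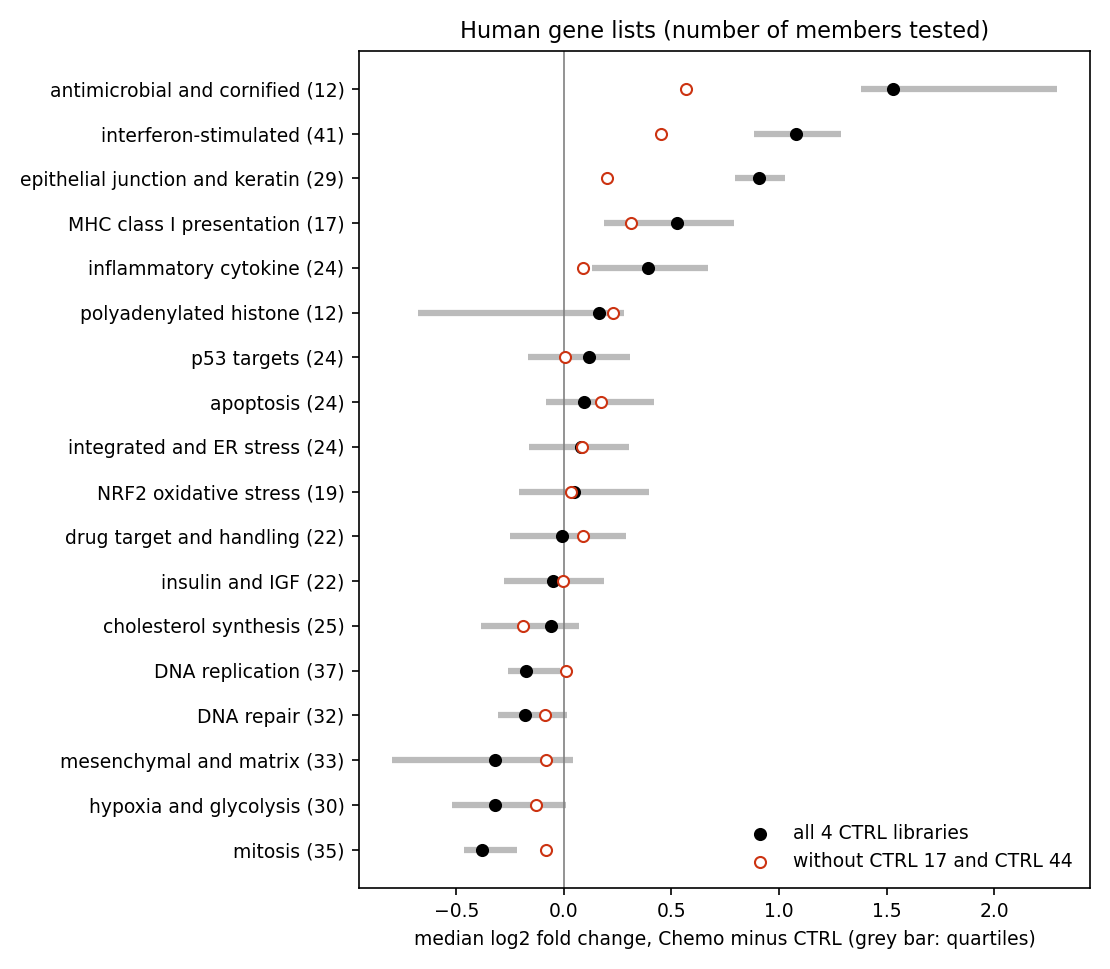
Median log2 fold change of Chemo over CTRL for 18 human gene lists, with the number of members tested in brackets, grey bars from the lower to the upper quartile, filled points for all 4 CTRL tumors and open points without CTRL 17 and CTRL 44. The interferon-stimulated median was 1.08 and 0.451, and the epithelial median 0.909 and 0.203.

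Interferon-stimulated genes had higher values in Chemo, with and without the pair. All 41 members tested had a log2 fold change above 0, with a median of 1.08 beside -0.0189 over all genes tested. In 20 of the 41, every Chemo tumor was above every CTRL tumor, which was so for 1.76% of all genes. By DESeq2 20 met the 3 criteria, beside 1.1% of all genes called higher. An unadjusted edgeR p below 0.05 was found for 38, beside 7.84% of all genes on that side, but the adjusted p was at least 0.0764 for each. Without CTRL 17 and CTRL 44, 40 of the 41 were still higher and the median was 0.451 beside -0.00137 over all genes. All 5 Chemo tumors lay above both CTRL 31 and CTRL 70 in 20 members, a share to be read beside the 3.63% of all genes.

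Single members show the shape of this difference. ISG15, a ubiquitin-like protein attached to other proteins under interferon, had 565, 2883, 886 and 2240 normalized counts in CTRL and 3869, 4390, 4412, 3932 and 5185 in Chemo (log2 fold change 1.41 ± 0.33 SE, adjusted p = 0.0782). The lowest Chemo tumor was above the highest CTRL tumor, and CTRL 17 and CTRL 44 were lower than CTRL 31 and CTRL 70. SAMD9, an antiviral factor, had 364, 991, 483 and 883 in CTRL and 1232, 1549, 1046, 1406 and 1918 in Chemo (log2 fold change 1.07 ± 0.24 SE, adjusted p = 0.0764). DDX58, which encodes the RNA sensor RIG-I, had 267, 598, 408 and 556 in CTRL and 621, 868, 919, 771 and 765 in Chemo (log2 fold change 0.79 ± 0.18 SE, adjusted p = 0.0764), again without overlap. Without the pair the log2 fold changes of these 3 genes were 0.77, 0.61 and 0.45.

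Other members of the list differed in how far the groups were apart. IFIT2, which binds foreign RNA, had 380, 968, 294 and 580 in CTRL and 1015, 1496, 1469, 1224 and 1143 in Chemo, and its groups did not overlap. RSAD2, the antiviral enzyme viperin, had 3.8, 396, 36.9 and 377 in CTRL and 686, 772, 619, 661 and 773 in Chemo, with CTRL 17 nearly devoid of it. IRF9, a transcription factor of the interferon response, overlapped (19.9, 90.1, 12.6 and 102 in CTRL and 104, 112, 119, 78 and 50.7 in Chemo), and it was the member whose sign turned without the pair, to -0.06. XAF1 was close to level without the pair, at 0.09. Outside the list, 2 further genes known to respond to interferon were among those with the smallest edgeR p. ZC3HAV1, an antiviral zinc-finger protein, had 814, 1420, 959 and 1294 in CTRL and 1754, 1919, 1482, 1709 and 2026 in Chemo (log2 fold change 0.67 ± 0.15 SE, adjusted p = 0.0764, 0.39 without the pair). LAMP3, a lysosomal membrane protein, had 5.7, 74.3, 18.9 and 67.8 in CTRL and 135, 174, 221, 139 and 164 in Chemo (log2 fold change 2.00 ± 0.46 SE, adjusted p = 0.0764, 1.23 without the pair), and no Chemo tumor reached down to a CTRL tumor in either gene.

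MHC class I genes pointed the same way with smaller values. Of 17 members 16 were higher in Chemo, with a median of 0.524, and 4 met the criteria by DESeq2, beside 1.1% of all genes called higher. B2M, the invariant light chain of the class I molecule, had 7024, 16042, 14326 and 14819 normalized counts in CTRL and 24630, 19752, 26563, 19520 and 27746 in Chemo (log2 fold change 0.86 ± 0.21 SE, adjusted p = 0.0844, 0.61 without the pair). Its Chemo tumors were all above CTRL 31, CTRL 44 and CTRL 70, which were close together, so that only CTRL 17 was low. HLA-C, a class I heavy chain, had 1699, 5252, 3372 and 5205 in CTRL and 6350, 7608, 9463, 6906 and 8591 in Chemo (log2 fold change 1.00 ± 0.24 SE, adjusted p = 0.0782, 0.57 without the pair). TAP1, which pumps peptides to the class I molecule, had 300, 715, 549 and 866 in CTRL and 881, 965, 1173, 895 and 1338 in Chemo (log2 fold change 0.79 ± 0.22 SE, adjusted p = 0.0976, 0.41 without the pair). These groups did not overlap, as in 4 of the 17 members, beside 1.76% of all genes with every Chemo tumor higher. HLA genes resemble each other closely, and how reads shared between them were counted is not given in the sources used here.

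Some other class I members overlapped. HLA-E had 2905, 3838, 3246 and 3608 in CTRL and 3027, 4329, 3057, 4105 and 4847 in Chemo, and ERAP1, which trims peptides, was the member with a value below 0 (log2 fold change -0.09 ± 0.18 SE, adjusted p = 0.825, 0.12 without the pair). When CTRL 17 and CTRL 44 were left out, all 17 members were above 0, with a median of 0.313. In 6 of them every Chemo tumor was above both CTRL 31 and CTRL 70, beside 3.63% of all genes. In MC + Chemo against MC, which shares no library with the present comparison, 14 of 17 class I members and 39 of 41 interferon-stimulated members were higher with chemotherapy, with medians of 0.526 and 0.394 beside -0.00836 over all genes. With MC + Chemo 5 taken as MC these medians were 0.391 and 0.3. No human gene passed the criteria in that contrast by edgeR (7.94% had an unadjusted p below 0.05), nor in its test of the difference between the 2 chemotherapy effects (9.74%). By DESeq2 that difference was called for 1 gene (0.0053%), ENSG00000130600, which has no symbol in the tables.

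**Figure D3:**
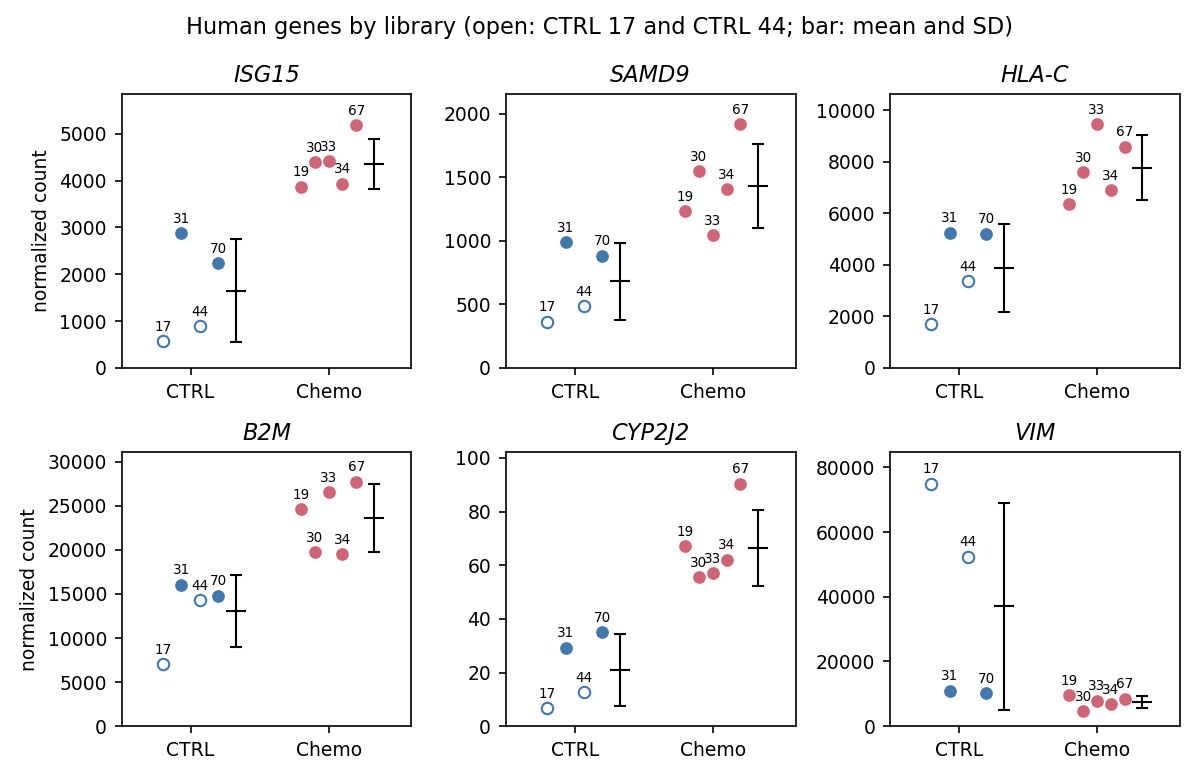
Normalized counts of 6 human genes by library, with the mouse number at each point, CTRL 17 and CTRL 44 as open points, and the mean with SD at the right of each group. The 5 Chemo tumors lie above all 4 CTRL tumors for ISG15, SAMD9, HLA-C, B2M and CYP2J2, and below them for VIM, where CTRL 17 and CTRL 44 reach 74862 and 52357.

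Of the genes that bear on the drugs themselves, CYP2J2 stood out among 22 tested. CYP2J2, a cytochrome P450, had 6.6, 29.3, 12.6 and 35 normalized counts in CTRL and 67.2, 55.5, 57.1, 62 and 90.3 in Chemo (log2 fold change 1.66 ± 0.38 SE, adjusted p = 0.0764). Every Chemo tumor was above every CTRL tumor, with a log2 fold change of 1.04 without CTRL 17 and CTRL 44, and the gene met the criteria by DESeq2 (DESeq2 adjusted p = 0.00269). GSTP1, a glutathione transferase that detoxifies alkylating agents, had 3149, 7212, 4738 and 5674 in CTRL and 8779, 9290, 12988, 8112 and 7576 in Chemo (log2 fold change 0.85 ± 0.24 SE, adjusted p = 0.097, 0.54 without the pair), likewise without overlap. These were the 2 members called by DESeq2, beside 1.1% of all genes called higher.

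The topoisomerases overlapped between the groups. TOP2A, the form of dividing cells, had 10168, 7382, 10778 and 6366 in CTRL and 8132, 7330, 4175, 5944 and 7705 in Chemo (log2 fold change -0.38 ± 0.20 SE, adjusted p = 0.322, -0.05 without the pair), and TOP2B, the form of all cells, had 1976, 1941, 1553 and 1992 in CTRL and 1535, 2032, 1709, 2406 and 1474 in Chemo (log2 fold change -0.03 ± 0.15 SE, adjusted p = 0.947, -0.10 without the pair). The list as a whole had 11 members higher and 11 lower, with a median of -0.00998, which turned to 0.0906 with 13 higher without the pair. Leaving out 1 library gave medians between -0.0653 (without Chemo 30) and 0.132 (without CTRL 44).

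Human p53 targets showed little common direction. Of 24 members 16 were higher in Chemo, with a median of 0.116, which was 0.00395 with 12 higher without CTRL 17 and CTRL 44. Their summed normalized counts were 5874, 8263, 6358 and 8047 in CTRL and between 8613 and 9382 in Chemo, so the sums did not overlap, but CTRL 31 and CTRL 70 were close to Chemo. CDKN1A, the inhibitor p21 that halts the cell cycle, had 928, 1988, 896 and 2367 in CTRL and 2498, 2019, 2027, 2473 and 2660 in Chemo (log2 fold change 0.60 ± 0.22 SE, adjusted p = 0.166). CTRL 31 and CTRL 70 lay within or close to the Chemo range, and the log2 fold change without the pair was 0.10. MDM2, which targets p53 for breakdown, differed by less than its error (log2 fold change 0.09 ± 0.11 SE, adjusted p = 0.717, -0.07 without the pair). PHLDA3 was at a log2 fold change of 0.82 ± 0.28 (adjusted p = 0.141, 0.36 without the pair) and CCNG1, a cyclin that p53 induces, at -1.01 ± 0.28 (adjusted p = 0.0976, -0.17 without the pair). Both overlapped, and CCNG1 was called lower by DESeq2.

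Cell division genes had lower values in Chemo as long as all CTRL tumors were kept. All 35 mitosis genes had a log2 fold change below 0, with a median of -0.382, and 12 had an unadjusted p below 0.05, beside 10.4% of all genes on that side. In 0 of the 35 were all Chemo tumors below all CTRL tumors, beside 1.5% of all genes. Without the pair the median was -0.0833 with 13 members above 0. PTTG1, the securin that holds sister chromatids together, had 2548, 1132, 3807 and 788 in CTRL and 1404, 893, 764, 823 and 1229 in Chemo (log2 fold change -1.02, and 0.09 without the pair), so the high values were those of CTRL 17 and CTRL 44. DLGAP5, a spindle protein, had 674, 380, 694 and 429 in CTRL and 355, 260, 310, 292 and 397 in Chemo (log2 fold change -0.75 ± 0.23 SE, adjusted p = 0.112, -0.33 without the pair). Of 37 DNA replication genes 7 were higher (median -0.174, and 0.0104 without the pair). GINS4, a part of the replicative helicase, was at a log2 fold change of -1.19 ± 0.37 (adjusted p = 0.119, -0.52 without the pair). Of 32 DNA repair genes 9 were higher (median -0.182, and -0.0886 with 7 higher without the pair), with ERCC1, a nuclease subunit that removes cross-links, at a log2 fold change of -0.66 ± 0.22 (adjusted p = 0.131, -0.05 without the pair) and XRCC6, the break-binding protein Ku70, at -0.41 ± 0.16 (adjusted p = 0.177, -0.06 without the pair).

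Epithelial genes had higher values in Chemo, and their difference followed CTRL 17 and CTRL 44 closely. All 29 junction and keratin genes were above 0 (median 0.909). In 4 of the 29 every Chemo tumor was above every CTRL tumor, beside 1.76% of all genes, and 2 met the criteria by DESeq2, beside 1.1%. Without the pair the median was 0.203 with 24 above 0. CLDN7, a tight junction protein, had 490, 2501, 1001 and 1773 in CTRL and 2702, 2989, 4758, 2664 and 3501 in Chemo (log2 fold change 1.21 ± 0.33 SE, adjusted p = 0.0948, and 0.64 without the pair). The desmosome protein PKP3 had 199, 1075, 338 and 697 in CTRL and 962, 1612, 1200, 1154 and 1124 in Chemo (log2 fold change 1.07 ± 0.32 SE, adjusted p = 0.108, 0.45 without the pair) and overlapped. The keratins of simple epithelia, KRT8 and KRT18, were at a log2 fold change of 0.74 ± 0.32 (adjusted p = 0.221, 0.21 without the pair) and 0.94 ± 0.35 (adjusted p = 0.170, 0.27 without the pair).

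Genes of antimicrobial and cornified epithelium had the highest median of the human lists, 1.53 over 12 members, all above 0, and 0.566 without the pair. PI3, the protease inhibitor elafin, had 1.9, 22.5, 9.9 and 23.3 in CTRL and 171, 50.9, 51.3, 82.6 and 35.2 in Chemo (log2 fold change 2.42 ± 0.66 SE, adjusted p = 0.0948, 1.75 without the pair), with no overlap. S100A8, a calcium-binding alarm protein, had 0.95, 60.8, 0 and 26.2 in CTRL and 108, 98.3, 29.1, 194 and 102 in Chemo and overlapped. Beside these, KRT13, a keratin of stratified epithelium, had 0.95, 74.3, 9.9 and 43.8 in CTRL and 94, 214, 191, 131 and 150 in Chemo (log2 fold change 2.28 ± 0.62 SE, adjusted p = 0.0948, 1.41 without the pair), and TSPAN8, a membrane tetraspanin, had 2.8, 42.8, 9.9 and 24.1 in CTRL and 121, 98.3, 67.6, 112 and 56.5 in Chemo (log2 fold change 2.20 ± 0.58 SE, adjusted p = 0.091, 1.46 without the pair). Both kept all Chemo tumors above CTRL 31 and CTRL 70.

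The genes lower in Chemo were mostly highest in CTRL 17 and CTRL 44. Of 33 mesenchymal and matrix genes 23 were lower (median -0.318, and -0.0829 without the pair). Of these 10 had an unadjusted p below 0.05, beside 10.4% of all genes on that side. In 3 the groups did not overlap, against 1.5% of all genes. VIM, given above, was lower in every Chemo tumor (log2 fold change -2.31 ± 0.49 SE, adjusted p = 0.0764), with a log2 fold change of -0.50 without the pair. ZEB1 was at a log2 fold change of -2.51 ± 0.53 (adjusted p = 0.0764), which became -0.58 without the pair. CST1, the cystatin SN, had 2043, 264, 11529 and 171 in CTRL and 76.1, 26.6, 37.3, 56.2 and 148 in Chemo (log2 fold change -5.64 ± 1.20 SE, adjusted p = 0.0764, -1.62 without the pair). FZD8, a Wnt receptor, had 377, 51.8, 760 and 62.7 in CTRL and 14.6, 10.4, 25.6, 22.9 and 45.5 in Chemo (log2 fold change -3.68 ± 0.77 SE, adjusted p = 0.0764, -1.23 without the pair). In both, CTRL 44 was highest, and CTRL 31 and CTRL 70 were above all Chemo tumors by less.

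The same form was seen in the other genes of this direction. AFF3, a nuclear regulator of transcription, had 760, 23.6, 266 and 30.6 in CTRL and 16.8, 6.9, 10.5, 12.6 and 13.9 in Chemo (log2 fold change -4.45, and -1.15 without the pair). BMP2, a growth factor of the TGF-β family, had 327, 72, 192 and 60.5 in CTRL and 33.6, 17.4, 19.8, 28.7 and 54.4 in Chemo (log2 fold change -2.38, and -1.08 without the pair), and ETV1, an ETS transcription factor, had 584, 156, 1420 and 209 in CTRL and 76.1, 84.5, 106, 115 and 154 in Chemo (log2 fold change -2.46, and -0.77 without the pair). APCDD1L, SYDE1, the chromatin-binding factor PSIP1, and CALB2, which encodes the calcium-binding protein calretinin, were at log2 fold changes of -3.29, -1.63, -1.20 and -1.59, and at -1.16, -0.54, -0.46 and -0.65 without the pair. All had an adjusted p of 0.0764 by edgeR, and in all 5 Chemo tumors each was below the lowest CTRL tumor.

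ITGA10, a collagen-binding integrin chain, kept a large difference without the pair. It had 64.5, 28.1, 344 and 27 in CTRL and 9, 5.8, 7, 1.1 and 2.9 in Chemo (log2 fold change -4.49 ± 0.74 SE, adjusted p = 0.0764). Against CTRL 31 and CTRL 70 alone, the log2 fold change was -2.42 (edgeR adjusted p = 1.00). CRACR2B, a regulator of calcium entry, was its counterpart among the higher genes, with 56.9, 135, 131 and 98.5 in CTRL and 220, 227, 200, 204 and 212 in Chemo (log2 fold change 1.01 ± 0.20 SE, adjusted p = 0.0764, and 0.87 without the pair). CPTP, which carries ceramide-1-phosphate, had 264, 358, 340 and 221 in CTRL and 469, 492, 563, 375 and 446 in Chemo (log2 fold change 0.67 ± 0.15 SE, adjusted p = 0.0764, and 0.70 without the pair). For these 2 genes CTRL 44 lay with CTRL 31 and above CTRL 70. SYNGR2, a vesicle membrane protein, had 1644, 3826, 1934 and 3218 in CTRL and 4905, 4948, 5538, 4424 and 5276 in Chemo (log2 fold change 0.92 ± 0.21 SE, adjusted p = 0.0764, 0.51 without the pair).

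Among metabolic genes, the cholesterol list had 15 of 25 members below 0 with a median of -0.0587, and 20 with a median of -0.188 without the pair. Leaving out 1 library gave medians between -0.19 (without CTRL 44) and 0.0306 (without CTRL 70), so the sign turned without CTRL 70. INSIG1, the sterol sensor that holds back cholesterol synthesis and is itself induced by the sterol program, had 860, 770, 592 and 898 in CTRL and 388, 422, 429, 449 and 641 in Chemo (log2 fold change -0.74 ± 0.20 SE, adjusted p = 0.0921), and the difference was -0.84 without the pair, with all Chemo tumors below CTRL 31 and CTRL 70. STARD4, a cholesterol carrier, was at a log2 fold change of -1.14 ± 0.30 (adjusted p = 0.091, -0.33 without the pair). Hypoxia and glycolysis genes had 8 of 30 members higher (median -0.319, and -0.13 without the pair), with PFKFB3 at a log2 fold change of -0.99 ± 0.33 (adjusted p = 0.132, -0.38 without the pair) and MXI1 at -0.75 ± 0.25 (adjusted p = 0.133, -0.05 without the pair).

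The remaining human lists had medians between -0.0499 and 0.392. Inflammatory cytokine genes had 20 of 24 members higher (median 0.392, and 0.091 with 14 higher without the pair), with the adhesion molecule ICAM1 at a log2 fold change of 0.90 ± 0.29 (adjusted p = 0.130, 0.31 without the pair). BIRC3, an inhibitor of cell death that is also an NF-κB target, had 733, 1505, 484 and 1743 in CTRL and 2066, 2023, 1958, 1896 and 1990 in Chemo (log2 fold change 0.83 ± 0.25 SE, adjusted p = 0.113, 0.29 without the pair). Apoptosis genes had 14 of 24 higher (median 0.094, 0.174 with 19 higher without the pair, and -0.00111 without CTRL 70), among them BIK, a cell death promoter, at a log2 fold change of 1.21 ± 0.43 (adjusted p = 0.155, 0.41 without the pair). Integrated and ER stress genes had 14 of 24 higher (0.0794, and 0.0847 with 16 higher without the pair), with PSAT1 at a log2 fold change of -0.84 ± 0.29 (adjusted p = 0.151, -0.39 without the pair) and XBP1 at 0.33 ± 0.15 (adjusted p = 0.238, 0.15 without the pair). NRF2 genes had 10 of 19 higher (0.0454, and 0.0327 with 10 higher without the pair), and their median was -0.0534 without CTRL 31 and 0.186 without CTRL 44, with the cystine carrier SLC7A11 at a log2 fold change of -1.59 ± 0.54 (adjusted p = 0.142, -0.61 without the pair) and AKR1C1 at -2.04 ± 0.76 (adjusted p = 0.172, 0.52 without the pair). Polyadenylated histone genes had 7 of 12 higher (0.163, and 0.229 with 7 higher without the pair), with HIST1H1C at a log2 fold change of -0.77 ± 0.26 (adjusted p = 0.141, -0.21 without the pair) and HIST1H2BD at 0.36 ± 0.17 (adjusted p = 0.270, 0.42 without the pair).

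Insulin and IGF genes had 10 of 22 higher (median -0.0499, -0.00266 with 11 higher without the pair, and 0.0364 without CTRL 44). IGFBP1, which binds insulin-like growth factors, had 975, 87.8, 602 and 79.5 in CTRL and 137, 39.3, 29.1, 37.9 and 114 in Chemo (log2 fold change -2.60 ± 0.76 SE, adjusted p = 0.107), and IGFBP4 was at a log2 fold change of -1.26 ± 0.39 (adjusted p = 0.120, 0.00 without the pair). RHOF had 307, 700, 558 and 545 in CTRL and 946, 942, 898, 749 and 917 in Chemo (log2 fold change 0.76 ± 0.20 SE, adjusted p = 0.091, 0.52 without the pair) with no overlap. RHOJ had 255, 49.5, 184 and 32.1 in CTRL and 32.5, 45.1, 31.5, 47 and 48.5 in Chemo (log2 fold change -1.67 ± 0.50 SE, adjusted p = 0.112). IGFBP1 and RHOJ were high in CTRL 17 and CTRL 44 only, and without them their log2 fold changes were -0.21 and 0.02.

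Host transcripts were tested in the same way. By edgeR, 0 of 15011 murine transcripts (0.0% called) met the 3 criteria, the lowest adjusted p was 0.330, and 4.53% had an unadjusted p below 0.05, with 320 higher (2.13%) and 360 lower (2.4%). A log2 fold change above 0 was found for 49.7%. By DESeq2, 15 met the criteria (0.0901%), 10 higher in Chemo (0.0601%) and 5 lower (0.03%). Of these 15, which were chosen on the same libraries, 12 had all Chemo tumors beyond both CTRL 31 and CTRL 70. Of all murine genes 2.84% had all 5 above and 3.94% all 5 below. The median absolute log2 fold change of the 15 was 2.53 with all CTRL tumors and 2.22 without CTRL 17 and CTRL 44. Without the pair DESeq2 called 5 transcripts, Camp, Ngp, H2-M2, Mybpc1 and Gzmf, and edgeR called 0 (an unadjusted p below 0.05 was found for 1.51% by edgeR and 1.78% by DESeq2). Murine counts set CTRL 17 and CTRL 44 apart too, with a median r across genes of 0.899 and 0.908 with the others, which had between 0.927 and 0.966 among themselves. Where the log2 fold change of a host gene is printed, that without the pair is added if it differs in sign or by over 1.5 times. In bulk tissue such as this, fewer cells of a type and less RNA per cell cannot be told apart.

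Murine p53 targets had higher values in Chemo, with and without the pair. Of 29 members 24 were higher in Chemo, with a median log2 fold change of 0.393 beside -0.00214 over all genes tested. At an unadjusted p below 0.05 there were 10 higher and 0 lower, beside 2.13% and 2.4% of all genes. In 6 every Chemo tumor was above every CTRL tumor (0.666% of all genes), and 1 was called higher by DESeq2 (0.0601% of all genes). The normalized counts of the list summed to between 4157 and 4791 in CTRL and between 5153 and 6356 in Chemo, so the sums did not overlap. Without CTRL 17 and CTRL 44 the median was 0.409 with 24 members higher, and leaving out any single library gave medians between 0.327 and 0.469. In MC + Chemo against MC 23 of the 29 were higher, with a median of 0.144 beside -0.0438 over all genes.

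Trp53inp1, a p53-induced protein of cell death and autophagy, had 95.2, 140, 103 and 133 normalized counts in CTRL and 224, 233, 268, 212 and 161 in Chemo (log2 fold change 0.90 ± 0.19 SE, adjusted p = 0.330). It met the criteria by DESeq2 (DESeq2 adjusted p = 0.00703). Eda2r, a death receptor of the TNF receptor family, had 9.7, 17.4, 5.1 and 13.5 in CTRL and 35, 24.6, 40.5, 34.3 and 41.5 in Chemo (log2 fold change 1.59 ± 0.36 SE, adjusted p = 0.330). Ccng1, a cyclin induced by p53, had 232, 261, 232 and 254 in CTRL and 527, 329, 370, 320 and 381 in Chemo (log2 fold change 0.65 ± 0.25 SE, adjusted p = 1.00), and Zmat3, an RNA-binding p53 target, had 136, 175, 180 and 127 in CTRL and 202, 228, 234, 227 and 239 in Chemo (log2 fold change 0.55 ± 0.17 SE, adjusted p = 0.899). In all 4 genes the lowest Chemo tumor was above the highest CTRL tumor.

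Cdkn1a, which encodes p21, had 1154, 782, 837 and 589 in CTRL and 1723, 1219, 1252, 1134 and 1746 in Chemo (log2 fold change 0.75 ± 0.22 SE, adjusted p = 0.741). CTRL 17 was the highest CTRL tumor and reached the lowest Chemo tumor, and without the pair the log2 fold change was 1.04. Mdm2 overlapped (log2 fold change 0.33 ± 0.20 SE, adjusted p = 1.00, 0.16 without the pair). Members that were not higher included Pmaip1, a cell death promoter (log2 fold change -0.42 ± 0.31 SE, adjusted p = 1.00), and Sesn1, a stress regulator (log2 fold change -0.04 ± 0.25 SE, adjusted p = 1.00, -0.12 without the pair). The human p53 list had a median of 0.116, and whether host and tumor differed in this was not tested.

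Globin transcripts were higher in every Chemo tumor. Hbb-bs, an adult beta globin, had 356, 1293, 1344 and 914 in CTRL and 9062, 5378, 2178, 2167 and 7099 in Chemo (log2 fold change 2.41 ± 0.54 SE, adjusted p = 0.330). Hba-a1, an alpha globin, had 170, 460, 369 and 405 in CTRL and 2322, 1946, 597, 970 and 2424 in Chemo (log2 fold change 2.23 ± 0.49 SE, adjusted p = 0.330). Alas2, the enzyme that starts heme synthesis in red cell precursors, had 4.9, 13.6, 16.5 and 9.6 in CTRL and 111, 62, 28.4, 37.5 and 81.2 in Chemo (log2 fold change 2.53 ± 0.61 SE, adjusted p = 0.452). In each, all Chemo tumors were above all CTRL tumors (0.666% of all murine genes), with Chemo 33 and Chemo 34 the lowest of the group. Hba-a2 and Hbb-bt were at a log2 fold change of 2.02 ± 0.50 (adjusted p = 0.529) and 2.53 ± 0.63 (adjusted p = 0.529), and the alpha and beta pairs are near-identical copies whose reads may be split between them. All 5 were called by DESeq2, beside 0.0601% of all murine genes called higher. In MC + Chemo against MC, with MC + Chemo 5 placed by its title, their log2 fold changes were smaller, between 0.41 (Hba-a1) and 0.86 (Alas2). The edgeR test of the difference between the chemotherapy effects with and without MC gave an adjusted p of 0.694 for each.

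Other red cell genes overlapped between the groups. Of 13 erythroid members tested 9 were higher, with a median of 0.381, and 9 with a median of 0.411 without the pair. The transferrin receptor Tfrc (log2 fold change -0.39 ± 0.35 SE, adjusted p = 1.00, -0.16 without the pair), the erythropoietin receptor Epor (log2 fold change -0.65 ± 0.52 SE, adjusted p = 1.00, -0.12 without the pair) and the membrane skeleton gene Sptb (log2 fold change -0.34 ± 0.92 SE, adjusted p = 1.00) were examples, and those of glycophorin A and band 3 were not analysed here. HBD, counted as a human globin, had 1.9, 14.6, 7.2 and 16.1 in CTRL and 121, 90.2, 26.8, 51.6 and 80.8 in Chemo (log2 fold change 2.88 ± 0.70 SE, adjusted p = 0.0792, 2.26 without the pair). Its log2 counts had a Pearson r of 0.956 with murine Hbb-bs over the 20 libraries.

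**Figure D4:**
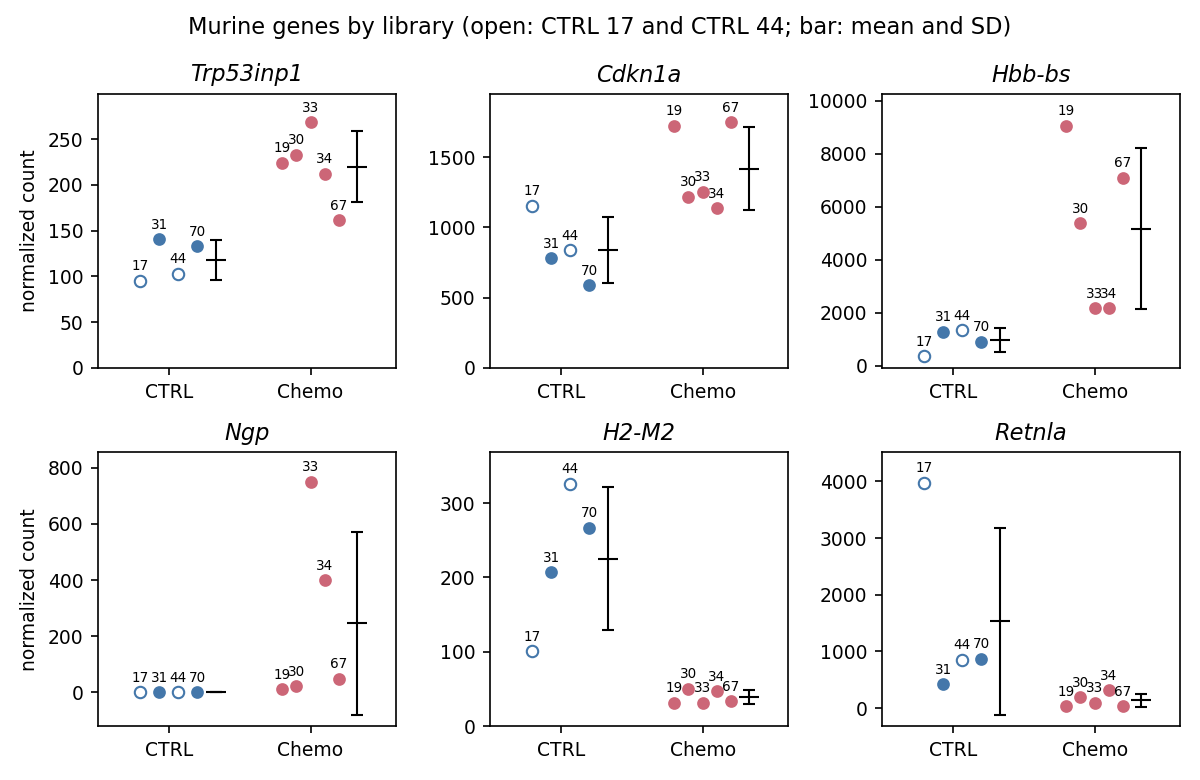
Normalized counts of 6 murine genes by library, with the mouse number at each point, CTRL 17 and CTRL 44 as open points, and the mean with SD at the right of each group. The Chemo tumors lie above all CTRL tumors for Trp53inp1, Hbb-bs and Ngp and below them for H2-M2 and Retnla, while Cdkn1a of CTRL 17 reaches 1154 beside a lowest Chemo value of 1134.

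Neutrophil granule genes were high in some Chemo tumors. Ngp, a granule protein of neutrophil precursors, had 0.97, 0.97, 0 and 1.3 normalized counts in CTRL and 10.8, 22.2, 750, 400 and 48.3 in Chemo (edgeR adjusted p = 0.330, DESeq2 adjusted p = 0.000152). Camp, the antimicrobial peptide cathelicidin, had 3.9, 1.9, 0 and 2.6 in CTRL and 4.8, 65.5, 540, 422 and 47.4 in Chemo (edgeR adjusted p = 0.330, DESeq2 adjusted p = 0.000183). Ltf, the granule protein lactoferrin, had 0, 0.97, 1.3 and 0.64 in CTRL and 0, 8.2, 230, 117 and 16.4 in Chemo, and Elane, neutrophil elastase, 0, 0.97, 0 and 0 in CTRL and 0, 19.9, 39.5, 22 and 0 in Chemo. With CTRL values this near 0, no fold is given. Chemo 33 and Chemo 34 carried most of these reads, and Chemo 19 was near the CTRL tumors for Camp, Ltf and Elane.

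Other genes of the neutrophil list overlapped between the groups. Csf3r, the G-CSF receptor, was at a log2 fold change of -0.08 ± 0.42 (adjusted p = 1.00, -0.35 without the pair), and Cxcr2, the chemokine receptor of mature neutrophils, at 0.10 ± 0.67 (adjusted p = 1.00, -0.58 without the pair). S100a8 had 65.1, 688, 274 and 988 in CTRL and 1380, 482, 3758, 2227 and 1764 in Chemo (log2 fold change 1.93 ± 0.66 SE, adjusted p = 0.935, 1.20 without the pair). Mmp8, the neutrophil collagenase, had 6.8, 15.5, 12.7 and 10.9 in CTRL and 53, 10.5, 84.1, 40.0 and 32.9 in Chemo (log2 fold change 1.94 ± 0.53 SE, adjusted p = 0.741), where Chemo 30 lay within the CTRL range. Over 17 members tested, 12 were higher with a median of 0.388, and 9 with a median of 0.103 without CTRL 17 and CTRL 44. Summed counts of the list ran from 1216 to 3322 in CTRL and from 1364 to 9700 in Chemo.

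Among the lower host genes, H2-M2, Retnla and F5 had groups that did not overlap. H2-M2, a non-classical MHC class I gene, had 101, 207, 326 and 267 in CTRL and 31.3, 50.3, 31.4, 47.3 and 33.8 in Chemo (log2 fold change -2.53 ± 0.50 SE, adjusted p = 0.330; DESeq2 adjusted p = 0.000667). The difference was -2.60 without CTRL 17 and CTRL 44 and -1.56 in MC + Chemo against MC. Retnla, a secreted protein of alternatively activated macrophages, had 3973, 421, 856 and 870 in CTRL and 38.6, 194, 99.3, 313 and 38.6 in Chemo (log2 fold change -3.48 ± 0.75 SE, adjusted p = 0.330, -2.22 without the pair), with CTRL 17 far above the other CTRL tumors. F5, coagulation factor V, had 170, 41.6, 52 and 56.5 in CTRL and 14.5, 5.8, 11.1, 15.5 and 24.2 in Chemo (log2 fold change -2.47 ± 0.51 SE, adjusted p = 0.330). All 3 met the criteria by DESeq2, beside 0.03% of all murine genes called lower. All Chemo tumors lay below all CTRL tumors in 0.733% of all murine genes.

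The alternative activation list as a whole did not follow Retnla. Of 18 members 3 were higher (median -0.244), but 10 were higher without CTRL 17 and CTRL 44 (median 0.0127), and the median was 0.156 without CTRL 17. Chil3, a lectin of the same macrophage state, had 2.9, 16.5, 24.1 and 25.7 in CTRL and 95.2, 44.5, 147, 73.4 and 33.8 in Chemo (log2 fold change 2.17 ± 0.61 SE, adjusted p = 0.741), so that it was higher in every Chemo tumor. The 23 macrophage genes had a median of -0.0691, with 7 higher, and 0.0635 with 17 higher without the pair. Itgam, the integrin CD11b, was at a log2 fold change of -0.40 ± 0.23 (adjusted p = 1.00, 0.06 without the pair) and the lysosomal protease Lgmn at -0.35 ± 0.25 (adjusted p = 1.00, 0.06 without the pair).

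Most natural killer cell genes had lower values in Chemo. Of 12 members 2 were higher, with a median of -0.636, and 3 with a median of -0.458 without the pair. Xcl1, a chemokine of natural killer cells, had 168, 200, 443 and 158 in CTRL and 56.6, 60.8, 93.2, 122 and 51.2 in Chemo (log2 fold change -1.65 ± 0.54 SE, adjusted p = 0.915), with no overlap (0.733% of all genes). Klrk1, which encodes the receptor NKG2D, had 116, 124, 109 and 108 in CTRL and 84.4, 60.8, 71.9, 118 and 42.5 in Chemo (log2 fold change -0.60 ± 0.41 SE, adjusted p = 1.00), where Chemo 34 reached the CTRL values. Gzma, a granzyme, had 147, 80.4, 43.2 and 98.1 in CTRL and 131, 97.1, 107, 354 and 19.3 in Chemo and was not lower. The list summed to between 943.5 and 1207 in CTRL and between 346.9 and 1393 in Chemo, where Chemo 34 was the highest. In MC + Chemo against MC 3 of 12 members were higher, with a median of -0.655 beside -0.0438 over all genes. Some other murine lists were about as low in that contrast, such as endothelial genes (-0.607), and some were above 0, such as neutrophil genes (0.61).

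Most murine interferon-stimulated genes had lower values in Chemo when all CTRL tumors were kept. Of 43 murine interferon-stimulated genes 1 was higher in Chemo, with a median of -0.263, and 21 were higher without CTRL 17 and CTRL 44, with a median of -0.00313. In MC + Chemo against MC 30 of the 43 were higher, with a median of 0.133 beside -0.0438 over all genes, and with MC + Chemo 5 taken as MC 10 were higher, with a median of -0.139. Gbp2, an interferon-induced GTPase, had 659, 549, 524 and 533 in CTRL and 389, 256, 207, 337 and 360 in Chemo (log2 fold change -0.87 ± 0.25 SE, adjusted p = 0.741, and -0.81 without the pair), and was lower in every Chemo tumor. Ifit2 had 586, 226, 345 and 219 in CTRL and 200, 139, 120, 187 and 227 in Chemo (log2 fold change -0.97 ± 0.34 SE, adjusted p = 0.957, -0.35 without the pair), in contrast to the human IFIT2 in the same libraries. The difference between the 2 genomes was not tested. Chemokine genes had 6 of 29 members higher (median -0.38, and -0.155 with 12 higher without the pair). In MC + Chemo against MC 17 of the 29 were higher, with a median of 0.244. Ccl5, a chemokine of lymphocytes and natural killer cells, had 1316, 466, 797 and 455 in CTRL and 396, 200, 161, 271 and 305 in Chemo (log2 fold change -1.51 ± 0.49 SE, adjusted p = 0.915, -0.79 without the pair), and Ccl6 was at a log2 fold change of -1.07 ± 0.35 (adjusted p = 0.915, -0.37 without the pair).

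**Figure D5:**
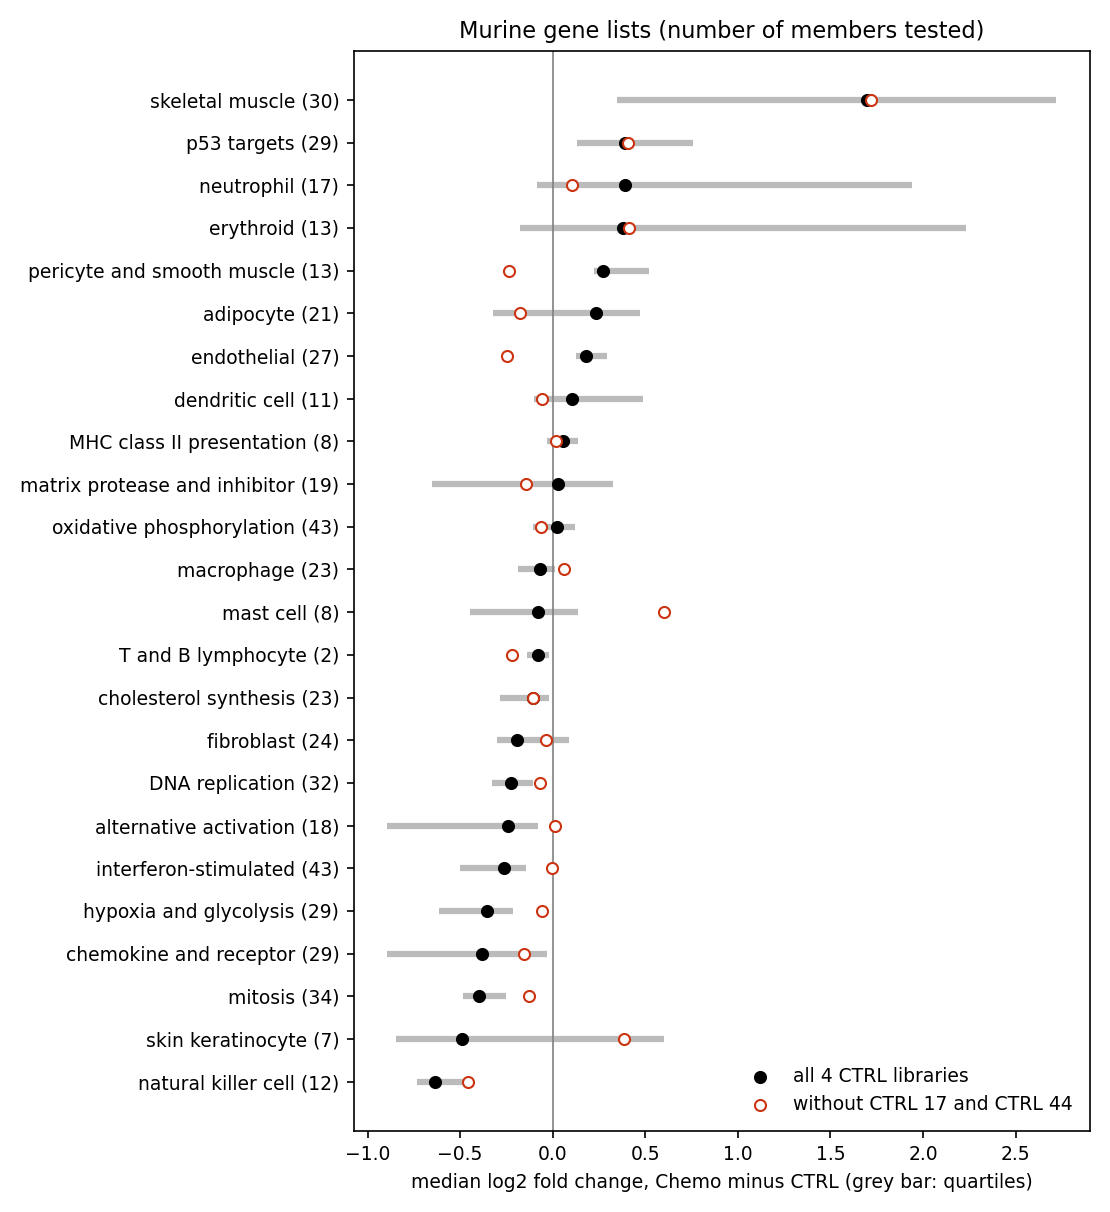
Median log2 fold change of Chemo over CTRL for 24 murine gene lists, with the number of members tested in brackets, grey bars from the lower to the upper quartile, filled points for all 4 CTRL tumors and open points without CTRL 17 and CTRL 44. The p53 median was 0.393 and 0.409, and the endothelial median 0.182 and -0.249.

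Antigen presentation and lymphocyte markers gave no common direction. MHC class II genes had 5 of 8 members higher (median 0.056, 0.0202 with 4 higher without the pair, and -0.155 without CTRL 17), with H2-DMb2 at a log2 fold change of 0.48 ± 0.38 (adjusted p = 1.00, 0.07 without the pair) and the class II regulator Ciita at 0.22 ± 0.53 (adjusted p = 1.00, -0.03 without the pair), and dendritic cell genes 7 of 11 (median 0.104, and -0.058 with 5 higher without the pair). Ccr7, the receptor of migrating dendritic cells, had 92.2, 106, 104 and 94.3 in CTRL and 59, 49.1, 43.5, 80.8 and 69.6 in Chemo (log2 fold change -0.71 ± 0.42 SE, adjusted p = 1.00), with no overlap, and the growth factor receptor Flt3 was at a log2 fold change of 0.85 ± 0.53 (adjusted p = 1.00, 0.48 without the pair). Of the T and B lymphocyte markers, which these hosts should lack, 2 were tested, Cd4 (log2 fold change 0.04 ± 0.47 SE, adjusted p = 1.00, -0.32 without the pair), which macrophages and dendritic cells can also express, and Cd79b, and their counts summed to between 33.7 and 71.8 in the 9 tumors. The others, genes of the T cell receptor complex included, were not analysed here. Mast cell genes had 3 of 8 higher (median -0.0791), but 6 with a median of 0.601 without the pair, and the median was 0.167 without Chemo 19, with Gata2 at a log2 fold change of 0.55 ± 0.34 (adjusted p = 1.00, 0.18 without the pair) and Mcpt4 at -0.60 ± 0.84 (adjusted p = 1.00, 0.68 without the pair).

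Vessel genes depended on CTRL 17. Pecam1, which encodes CD31, had 113, 896, 664 and 838 in CTRL and 623, 794, 966, 807 and 728 in Chemo (log2 fold change 0.32 ± 0.38 SE, adjusted p = 1.00). CTRL 17 was several times below every other tumor, and without the pair the log2 fold change was -0.15. Of 27 endothelial genes 24 were higher in Chemo (median 0.182), but 7 without CTRL 17 and CTRL 44 (median -0.249), and the median was -0.155 without CTRL 17. Their summed counts were 1683 in CTRL 17, between 6946 and 9392 in the other CTRL tumors and between 5993 and 8506 in Chemo. Egfl7 (log2 fold change 0.53 ± 0.41 SE, adjusted p = 1.00, 0.05 without the pair) and Esm1 (log2 fold change 0.72 ± 0.54 SE, adjusted p = 1.00, 0.48 without the pair) showed the same low value of CTRL 17.

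Pericyte and smooth muscle genes had 10 of 13 members higher with all tumors (median 0.269) and 2 without the pair (median -0.235), with Rgs5, a pericyte marker, at 159, 3532, 1309 and 2399 in CTRL and 1827, 4010, 3136, 3033 and 1789 in Chemo, and Myl9 at a log2 fold change of 0.55 ± 0.41 (adjusted p = 1.00, -0.11 without the pair). Fibroblast genes had 7 of 24 higher (median -0.195, and -0.035 with 10 higher without the pair). Col6a3, a collagen VI chain, had 5202, 5818, 4587 and 4478 in CTRL and 3004, 4074, 4137, 4362 and 3922 in Chemo (log2 fold change -0.36 ± 0.26 SE, adjusted p = 1.00), lower in every Chemo tumor, and the matrix protein Tnc was at a log2 fold change of -1.23 ± 0.71 (adjusted p = 1.00, 0.07 without the pair).

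Matrix protease genes had 10 of 19 higher (median 0.0263), and 7 with a median of -0.144 without the pair. Leaving out 1 library gave medians between -0.194 (without CTRL 44) and 0.211 (without CTRL 31). Mmp12, the macrophage elastase, had 659, 505, 760 and 738 in CTRL and 547, 260, 276, 341 and 325 in Chemo (log2 fold change -0.93 ± 0.36 SE, adjusted p = 1.00), and Mmp13, a collagenase, had 6851, 1969, 2894 and 4064 in CTRL and 1473, 866, 1409, 1495 and 2085 in Chemo (log2 fold change -1.43 ± 0.61 SE, adjusted p = 1.00). Both overlapped. Mmp24 had 15.5, 133, 30.5 and 96.2 in CTRL and 246, 185, 274, 101 and 183 in Chemo (log2 fold change 1.51 ± 0.46 SE, adjusted p = 0.866, 0.78 without the pair).

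Adipocyte genes had 14 of 21 higher (median 0.232) and 8 without the pair (median -0.178), with Pparg at a log2 fold change of -0.66 ± 0.70 (adjusted p = 1.00) and normalized counts of Adrb3 at 0, 19.4, 0 and 17.3 in CTRL and 2.4, 32.8, 52.7, 22 and 6.8 in Chemo. Skeletal muscle genes had a median of 1.7 over 30 members that came from Chemo 30, whose summed muscle counts were 4333 beside 302 to 431 in the other 8 tumors, and the median was -0.152 without that tumor. Tnnc2, a troponin, had 9.7, 6.8, 11.4 and 11.6 in CTRL and 7.2, 370, 7.1, 10.6 and 25.1 in Chemo, and Pvalb was at 6.8, 2.9, 5.1 and 3.2 in CTRL and 2.4, 188, 3, 1.6 and 5.8 in Chemo. Mybpc1 and Lmod2, which DESeq2 called, had highest values of 10.5 and 8.2 in Chemo 30 and were listed at 0 in all CTRL tumors. Gzmf, a granzyme that DESeq2 called without the pair, had 64.1, 1.9, 7.6 and 3.2 in CTRL and 228, 15.2, 16.2, 23.6 and 89.9 in Chemo. Skin keratinocyte genes had 3 of 7 higher (median -0.488), but 4 with a median of 0.386 without the pair, and the median was 0.472 without CTRL 70, with Krt5 at a log2 fold change of 1.10 ± 0.52 (adjusted p = 1.00, 0.45 without the pair) and Dmkn at -1.16 ± 0.70 (adjusted p = 1.00, 0.90 without the pair).

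Host proliferation and metabolism genes were lower mainly beside CTRL 17 and CTRL 44. Mitosis genes had 1 of 34 members higher (median -0.398, and -0.128 without the pair), and Kif2c, a spindle motor, had 61.2, 52.3, 93.9 and 37.9 in CTRL and 32.5, 17.6, 31.4, 26.9 and 35.8 in Chemo (log2 fold change -1.07 ± 0.30 SE, adjusted p = 0.741, -0.64 without the pair), with no overlap. Ccna2 was at a log2 fold change of -0.73 ± 0.22 (adjusted p = 0.815, -0.27 without the pair) and Top2a at -0.64 ± 0.33 (adjusted p = 1.00, -0.03 without the pair). DNA replication genes had 4 of 32 higher (median -0.223, and -0.0691), with Rrm2 at a log2 fold change of -0.61 ± 0.26 (adjusted p = 1.00) and Mcm6 at -0.34 ± 0.18 (adjusted p = 1.00). Hypoxia and glycolysis genes had 3 of 29 higher (median -0.356, and -0.0576), with Mxi1 at a log2 fold change of -0.76 ± 0.31 (adjusted p = 1.00, 0.23 without the pair) and Egln3 at -0.63 ± 0.28 (adjusted p = 1.00).

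Cholesterol synthesis genes had 3 of 23 higher (median -0.109, and -0.106 without the pair). Cyp51, the lanosterol demethylase, had 282, 265, 260 and 265 in CTRL and 178, 182, 156, 209 and 214 in Chemo (log2 fold change -0.51 ± 0.18 SE, adjusted p = 0.935), lower in every Chemo tumor, and Fdps was at a log2 fold change of -0.52 ± 0.26 (adjusted p = 1.00). In MC + Chemo against MC 0 of the 23 were higher, with a median of -0.625 beside -0.0438 over all genes. Other murine lists were about as low there, among them oxidative phosphorylation (2 of 43 higher, median -0.705) and endothelial genes (1 of 27, -0.607). Some were above 0, such as neutrophil genes (15 of 17, 0.61). Oxidative phosphorylation genes had 26 of 43 higher (median 0.0205), but 16 with a median of -0.0628 without the pair, and the median was -0.0731 without Chemo 19, with Atp5j at a log2 fold change of -0.31 ± 0.32 (adjusted p = 1.00, -0.53 without the pair) and Ndufs4 at -0.29 ± 0.31 (adjusted p = 1.00, -0.08 without the pair).

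Several murine genes lower in Chemo followed the human gene of the same name from library to library. Murine Vim had 24621, 10949, 25646 and 11697 in CTRL and 9116, 8705, 7957, 9787 and 10857 in Chemo (log2 fold change -0.97 ± 0.23 SE, adjusted p = 0.447, -0.29 without the pair), and its log2 counts had a Pearson r of 0.902 with human VIM over the 20 libraries. Fzd8 had 224, 70.7, 691 and 53.9 in CTRL and 28.9, 38.6, 34.4, 53 and 71.5 in Chemo (r = 0.94), Ltbp1 854, 243, 881 and 182 and 164, 172, 175, 169 and 179 (r = 0.95), and Ccdc88a 4400, 1810, 3828 and 1811 and 1772, 1631, 785, 1403 and 1358 (r = 0.947). The log2 fold changes of Fzd8, Ltbp1 and Ccdc88a were -2.5, -1.65 and -1.09, and -0.45, -0.31 and -0.38 without the pair. Over all 10606 genes of the same name in both tables the median r was 0.398 and the 95th percentile 0.872. Mmp24, Krt5, Pvalb, Tnnc2, Pparg, Ndufs4, Mybpc1 and Lmod2, named above, were also beyond that percentile, and Zmat3 (r = 0.0806) and Cdkn1a (r = 0.0908) were not. Human ESR1 (r = 0.915) and PSIP1 (r = 0.894) were beyond it as well. The sources used here do not give the handling of reads that fit both species, and its part in these murine and human values was not tested.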

How the data were processed

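Tumor RNA of 9 mice (CTRL, 4; Chemo, 5) was measured as QuantSeq 3′ libraries, each from a different mouse. Per the paper's methods, the authors aligned and counted reads on the BlueBee platform, apart for human and mouse, and deposited raw counts per Ensembl gene. GRCm38 is named in the submitters' processing notes, and the human build is not given in the sources used here. The deposited tables hold 18880 human and 16667 murine genes, with a smallest sum of 72 counts a gene over the series, so rarer genes were removed before deposit. The authors also deposited a normalized signal, the counts divided by DESeq2 size factors, which was used only for the gene symbols and to check the counts. Of the genes, 5259 human and 2991 murine IDs had no symbol. No column was left unmapped (0).

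Counts as deposited were tested with edgeR 4.0.16 (limma 3.58.1, R 4.3.3): TMM, filterByExpr, the quasi-likelihood F test and Benjamini-Hochberg adjustment, on the 20 libraries of the 4 obese groups. A gene was called with an adjusted p below 0.05, a mean above 30 and a fold above 1.5. DESeq2 1.42.0, the study's tool (1.22.2 in the processing notes), was the named alternative. On simulated data, edgeR found 62 of 100 human genes changed by a log2 fold of 1 and 95 of 100 changed by 2. It made 6 false calls among 16434 genes. Of the murine genes it found 45 and 96, with 7 false calls among 15011. DESeq2 found 69 and 96 of the human genes, with 20 false calls. Of the murine genes DESeq2 found 57 and 96, with 23 false calls. These rates hold for the simulated data only, and recovery under the unequal tumor-cell state of the CTRL tumors was not tested. For each genome, the genes named were, among those with a symbol, the 8 higher and 8 lower with the smallest edgeR p, a mean above 30, a fold above 1.5 and groups that did not overlap; the 5 higher and 5 lower with the largest fold among non-overlapping DESeq2 calls; genes of a fixed list (drug targets, p53 targets, globins, Pecam1 and genes the study names); and the 2 members of each gene list with the smallest edgeR p and a mean above 30. IFIT2, RSAD2, IRF9, XAF1, KRT8, KRT18, HLA-E, ERAP1, S100A8, the receptors and other members of the lists, and murine Fzd8, Mybpc1, Lmod2 and Gzmf, were named after their values were seen. Some genes that this rule names are not reported here. Members and gene lists were chosen with earlier results of these data known, and are described by counts and medians. EdgeR p-values rest on a spread between mice pooled over the 20 libraries, 11 of them MC or MC + Chemo tumors. In the 9 libraries alone, the edgeR adjusted p of SAMD9, ZEB1, CYP2J2 and ITGA10 was 0.434 each, beside 0.0764 in the main fit. By limma voom with quality weights it was 0.734 for SAMD9, ZEB1 and CYP2J2 and 0.435 for ITGA10. Depth was 8154438 to 14921856 human and 4397815 to 7919564 murine counts a library. Leaving out each library, other normalizations, filters and sets of libraries were tried. Sequences were not used here.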

Additional observations from a re-analysis of the deposited data

Results flagged for a closer look

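Groups of 4 or 5 libraries, 256 in all, were formed for each named gene and for the human share of counts in each arm. In each, the gap of the extreme library to its neighbour was set against the range of the group, and 14 groups passed Dixon's 95% limit. Chance flags about 1 in 20 groups. In CTRL, mouse 17 was far below the others for B2M (gap over range 0.863), Pecam1 (0.855), Egfl7 (0.875) and Esm1 (0.956), and far above them for Dmkn (0.968). Mouse 44 was far below for TOP2B (0.896), ESR1 (0.913) and Mdm2 (0.876). In Chemo, mouse 30 was far above for the muscle genes Pvalb (0.778) and Lmod2 (1.0), mouse 33 far below for PSIP1 (0.829), mouse 34 far below for RHOF (0.778), mouse 19 far below for Col6a3 (0.715) and mouse 67 far above for INSIG1 (0.712).

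The effect of Chemo without MC and with MC differed for 1 human transcript by the DESeq2 interaction test, ENSG00000130600, which has no symbol in the tables. Its edgeR log2 fold change was 1.52 ± 0.54 in Chemo against CTRL and -1.68 ± 0.47 in MC + Chemo against MC, and the DESeq2 log2 difference of the second from the first was -3.2, with an adjusted p of 0.0252 and a mean normalized count of 244. By edgeR 0 transcripts met the 3 criteria in this test, while 9.74% had an unadjusted p below 0.05, and the adjusted p of ENSG00000130600 was 0.511.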

How the results depend on the processing

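No paired analysis was possible because the replicate numbers are those of single mice and no number is shared between the groups. With all libraries in turn left out, edgeR called 0 to 1180 human transcripts and 0 to 1 murine (without CTRL 31 in both cases, and 622 human without CTRL 70). DESeq2, which called 483 human and 15 murine, then called 16 to 1671 human and 10 to 44 murine. The lowest human counts were those without CTRL 44 (16) and CTRL 17 (47), and the highest without CTRL 31 (1671) and CTRL 70 (1198). It called 82 human and 23 murine transcripts in the 9 libraries alone, and 0 human and 5 murine without both CTRL 17 and CTRL 44, where 2 CTRL tumors remain. The chemotherapy effects with and without MC differed in 0 human transcripts by edgeR and 1 by DESeq2. EdgeR called 0 with robust dispersion, other size factors, no filter, other sets of libraries, MC + Chemo 5 taken as MC, or the adjusted p alone, and limma voom called 0.

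Log2 fold changes of genes near 0 or led by the pair turned sign. Without both CTRL 17 and CTRL 44 they were -0.067 for MDM2, 0.016 for RHOJ, 0.092 for PTTG1, 0.52 for AKR1C1, 0.00024 for IGFBP4, -0.21 for ESR1, -0.15 for Pecam1, 0.060 for Itgam, 0.064 for Lgmn, -0.026 for Ciita, -0.32 for Cd4, 0.68 for Mcpt4, 0.068 for Tnc, -0.11 for Myl9, -0.11 for Rgs5, 0.90 for Dmkn and 0.23 for Mxi1. By limma voom with quality weights they were -0.016 for MDM2, 0.30 for AKR1C1, -0.22 for ESR1, -0.22 for Cd4 and 0.31 for Mcpt4. Leaving out each library gave -0.14 to 0.043 for TOP2B, -2.42 to 0.25 for AKR1C1, -0.31 to 0.32 for ESR1, -0.031 to 0.54 for Pecam1, -0.20 to 0.23 for Cd4, -0.44 to 3.46 for Pvalb and -1.55 to 0.87 for Dmkn. Without MC 41 in the fit no named gene turned sign. The fits without MC 41 and without the pair were chosen after seeing the data. At these depths, murine granule genes, near 0 in CTRL, carry no usable fold.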
